A study of Ovis aries with 12 samples.

Results

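The genes described here encode nuclear subunits and assembly factors of respiratory complex III, respiratory complex IV and ATP synthase. They were taken by symbol: every probe set of the bovine array whose annotation gave exactly 1 symbol starting with UQCR, ATP5 or COX plus a digit, or the symbol CYC1 or CYCS. This gave 58 probe sets of 45 genes out of 9155 genes with 1 symbol, and CYCS had none. Each gene was represented by its brightest probe set, and 44 of the 45 passed the filter on dim probe sets. The exception was COX20, a chaperone for a mitochondrially encoded complex IV subunit, with a mean of 4.82 against a limit of 5.25. By complex there were 9 genes of complex III, 13 of complex IV, 6 complex IV assembly factors (5 tested) and 17 of ATP synthase.

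Longissimus dorsi, the long muscle of the back, came from 12 lambs of 6 groups with 2 lambs each. Callipyge lambs, labelled +/CLPG, carried 1 copy of the mutation that causes muscle overgrowth after birth, and normal wild-type lambs were labelled +/+. Both genotypes were sampled at 10, 20 and 30 days of age, had nursed their dams until shortly before death and received no treatment. There were thus 6 lambs of each genotype and 4 of each age. Total RNA of each lamb was read by 1 Affymetrix bovine array, so sheep transcripts were measured with cattle probes. Values below are log2 of the scaled intensity plus 16, and a difference of 1 is close to 2-fold for genes far above the added 16, while changes of low genes are understated.

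Complex III passes electrons from ubiquinol to cytochrome c, complex IV passes them on to oxygen, and both pump protons across the inner mitochondrial membrane. ATP synthase lets the protons return and uses their flow to turn a ring of c subunits, which drives ATP formation in its F1 head. Slow, oxidative muscle fibres are rich in these complexes, and fast glycolytic fibres hold less of them. Several complex IV subunits exist as a form for heart and skeletal muscle and a form found more widely.

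The labelled tissue was checked with marker genes. All 8 measured skeletal muscle markers were tested, with summed scaled intensities of 60370.1 to 84062, and the heart markers summed to 30.7 to 94.1, with NPPA and TNNI3 among the dim genes. The trimmed mean intensity of the arrays ran from 55.7 to 105.7 before scaling. It was higher at 30 than at 10 days by 0.30 on the log2 scale and lower in callipyge than in normal lambs by 0.22 (log2 difference -0.22). Without scaling, the median of all probe sets shifted to 0.24 for 10 to 30 days and to -0.19 for genotype, so every change here is relative to the bulk of probe sets. The arrays of replicate 2 of both 30 day groups had the lowest mean correlation with the other arrays over the probe sets tested, 0.953 and 0.951 against 0.955 to 0.963, and results are given without them where they matter. In bulk muscle, fewer mitochondria-rich fibres and less RNA per fibre cannot be told apart.

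Across lambs the members lay high or low together, by age and, at 10 and 20 days, by genotype. Of the 44 tested members, 7 and 6 lay below their own mean over all lambs in the normal lambs of 10 days, and 7 and 5 in those of 20 days. In callipyge lambs the counts were 29 and 12 at 10 days and 17 and 16 at 20 days. At 30 days they were 37 and 39 in normal and 38 and 40 in callipyge lambs, so all 4 lambs of that age had most members below the mean. The mean deviation over the members ran from 0.33 in normal 10 day replicate 2 to -0.33 in callipyge 30 day replicate 2, while the median deviation of all probe sets tested stayed between -0.02 and 0.04 in every lamb.

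**Figure D1:**
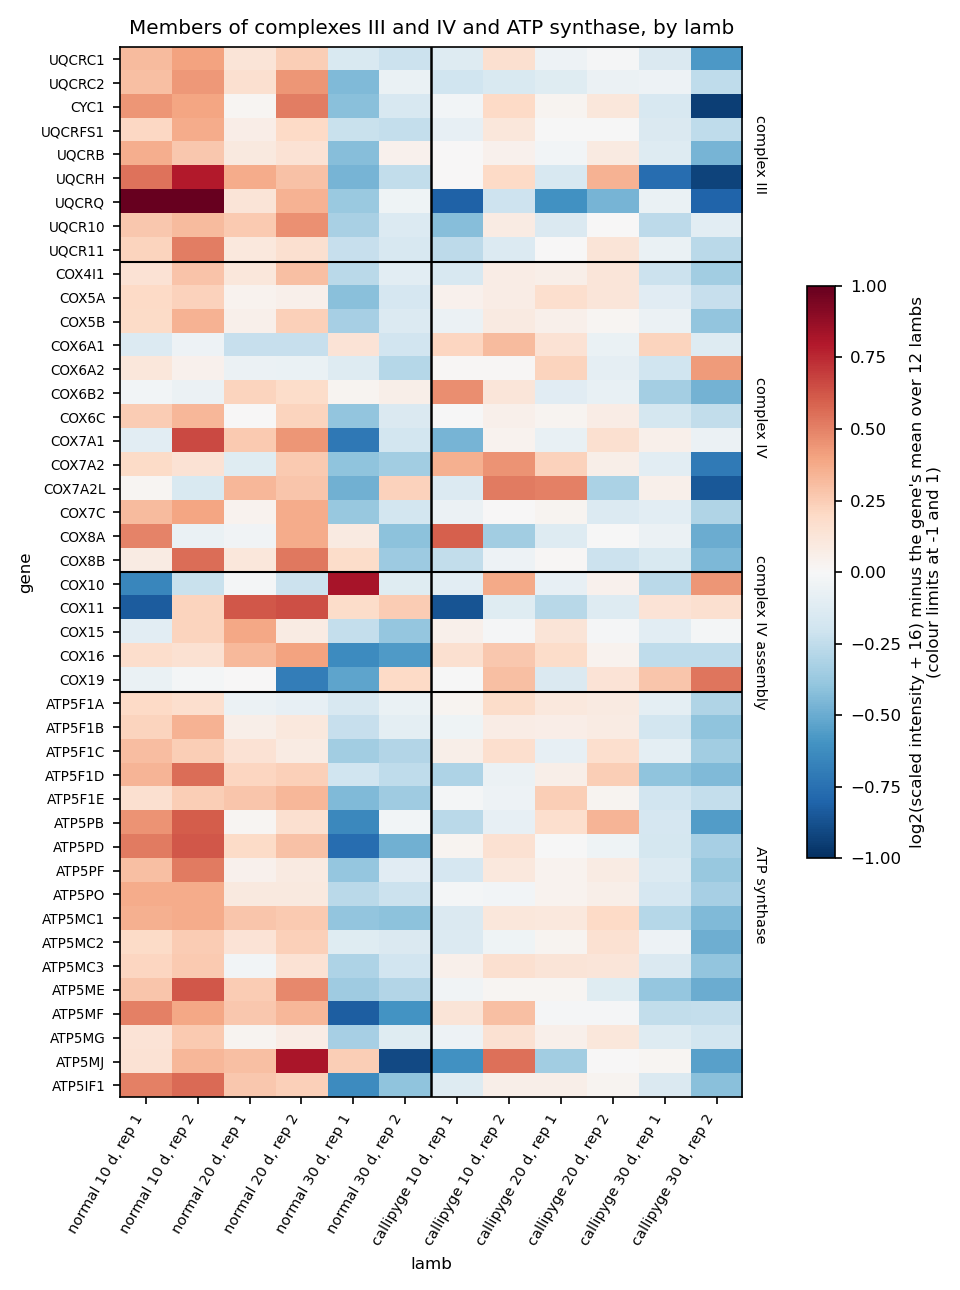
Heat map of the 44 tested members (rows, by complex) in 12 lambs (columns, by genotype and age). Colour gives log2(scaled intensity + 16) minus the mean of that gene over all lambs, with limits at -1 and 1. Normal lambs of 10 days are the highest for complex III and ATP synthase, and 37 to 40 of the 44 members lie below their own mean in each lamb of 30 days.

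The first comparison asked which of these genes differed between callipyge and normal muscle. Averaged over the ages, 1 of the 44 members fell, UQCRQ of complex III, and 0 rose. Of all 12008 probe sets tested, 0.316% fell and 0.566% rose (0.883% in all) at the same threshold, an adjusted p of 0.05 in limma. Members lay below 0 in 35 of 44 cases (52.5% of all probe sets) and had a median difference of -0.14, beside -0.01 for all probe sets. Complex III lay lowest with 9 of 9 members below 0 and a median of -0.26. ATP synthase followed with 16 of 17 and -0.15, then complex IV with 9 of 13 and -0.12. The assembly factors of complex IV had 1 of 5 below 0 and a median of 0.05. Without scaling their median was -0.14, beside -0.19 for all probe sets. With 1 array left out these medians ran from -0.32 to -0.17 in complex III, from -0.16 to -0.05 in complex IV and from -0.18 to -0.11 in ATP synthase. Complex IV stood at -0.07 without callipyge 30 day replicate 2 and at -0.05 without normal 30 day replicate 2, and complex III at -0.17 without callipyge 30 day replicate 2. Without both of these arrays complex III stood at -0.18 and complex IV at -0.03. The difference between these medians was not tested. At an unadjusted p under 0.05 there were 11 members (11.8% of all probe sets), 6 of them in complex III, 3 in ATP synthase and 2 in complex IV. Of the 631 probe sets with a mean log2 of 10 or more, bright members included, 163 had such a p. All probe sets are thus a lenient background for this count. Of the same 631, 344 lay below 0, with a median of -0.02. No member had all 6 callipyge lambs below all 6 normal lambs, which 0.35% of probe sets had.

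In complex III, UQCRQ encodes a small subunit near the ubiquinone-binding cytochrome b. Its level was 8.82 and 8.81, 7.49 and 7.71, and 6.996 and 7.32 in normal lambs of 10, 20 and 30 days, against 6.56 and 7.15, 6.76 and 6.90, and 7.30 and 6.56 in callipyge lambs. The 2 normal lambs of 10 days stood far above all the others, and at 30 days the genotypes overlapped. Averaged over the ages UQCRQ fell by 0.99 ± 0.15 (SE) in callipyge lambs, a 1.98-fold difference (adjusted p = 0.0091), and at 10 days alone by 1.96 ± 0.27, a 3.89-fold difference (adjusted p = 0.0252). It was the only member called at a single age, 10 days, where 0.025% of probe sets fell and 0.0416% rose (0.0666% in all). The call over the ages had an adjusted p of 0.0552 without both 30 day replicates 2 (difference -0.81) and 0.147 with ordinary least squares. The 10 day call ended without any of the 4 lambs of that age, with adjusted p of up to 0.179.

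UQCRH, the hinge protein that helps cytochrome c1 meet cytochrome c, came next in this complex. Its level was 11.11 and 11.36, 10.94 and 10.87, and 10.11 and 10.33 in normal lambs of 10, 20 and 30 days, against 10.57 and 10.77, 10.41 and 10.92, and 9.81 and 9.64 in callipyge lambs. Callipyge lambs lay below normal ones at 10 and 30 days and overlapped them at 20 days, with a difference of -0.43 ± 0.11 that did not pass (adjusted p = 0.094). The core subunits UQCRC1 and UQCRC2, which hold the complex together on the matrix side, gave -0.25 and -0.27 (adjusted p = 0.303 and 0.277). The electron carriers CYC1, cytochrome c1, and UQCRFS1, the Rieske iron-sulfur protein, gave -0.26 and -0.13 (0.46 and 0.52). The remaining small subunits UQCRB, UQCR10 and UQCR11 gave -0.16, -0.28 and -0.20, with adjusted p of 0.343 to 0.512. A dimmer UQCRC2 probe set went the other way at 0.34 (adjusted p = 0.248).

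In complex IV no member passed for genotype, at adjusted p of 0.287 or more. COX8B, the heart and muscle form of subunit VIII, had the smallest p. Its level was 9.97 and 10.45, 10.01 and 10.42, and 10.07 and 9.53 in normal lambs of 10, 20 and 30 days, against 9.64 and 9.84, 9.90 and 9.67, and 9.74 and 9.44 in callipyge lambs. Both callipyge lambs lay below both normal lambs at 10 and at 20 days but not at 30 days, and the difference was -0.37 ± 0.13 (adjusted p = 0.287). A dimmer COX8B probe set gave 0.10 (adjusted p = 0.826). COX7C, a small membrane subunit, read 12.33 and 12.40, 12.04 and 12.38, and 11.63 and 11.83 in normal lambs of 10, 20 and 30 days, against 11.95 and 12.01, 12.03 and 11.87, and 11.91 and 11.71 in callipyge lambs. It had the same arrangement as COX8B, with a difference of -0.19 ± 0.08 (adjusted p = 0.398). The other members ran from -0.15 for COX4I1, a large regulatory subunit, to 0.23 for COX6A1, the widely expressed form of subunit VIa, and COX5A, COX6A2 and COX7A2 also lay above 0.

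The assembly factors of complex IV did not pass for genotype. COX11, which helps deliver copper to the catalytic core, read 8.23 and 9.28, 9.68 and 9.70, and 9.24 and 9.32 in normal lambs of 10, 20 and 30 days, against 8.20 and 8.94, 8.78 and 8.93, and 9.20 and 9.22 in callipyge lambs. Replicate 1 of both 10 day groups was the lowest for this gene, and callipyge lambs lay below normal lambs at 20 and 30 days (difference -0.36 ± 0.17, adjusted p = 0.433). COX19, a copper-related protein of the intermembrane space, was close to the limit for dim probe sets and read 5.49 and 5.55, 5.57 and 4.88, and 5.04 and 5.76 in normal lambs of 10, 20 and 30 days, against 5.56 and 5.87, 5.42 and 5.70, and 5.84 and 6.10 in callipyge lambs. The genotypes lay apart at 10 and 30 days, with callipyge lambs higher, and overlapped at 20 days, with a difference of 0.37 ± 0.17 (adjusted p = 0.431), while a dimmer probe set gave -0.13 (adjusted p = 0.844). COX10 and COX15, the enzymes that make haem A, gave 0.13 and 0.01, and COX16 gave 0.05.

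In ATP synthase no member passed, at adjusted p of 0.131 or more, and the differences ran from -0.33 to 0.00. ATP5ME, subunit e of the membrane part, had the smallest p and was the only member in which both callipyge lambs lay below both normal lambs at each of the 3 ages (1.47% of probe sets). Its level was 11.06 and 11.40, 11.04 and 11.26, and 10.43 and 10.49 in normal lambs of 10, 20 and 30 days, against 10.75 and 10.80, 10.80 and 10.66, and 10.40 and 10.29 in callipyge lambs. The difference was -0.33 ± 0.09 (adjusted p = 0.131). ATP5F1D, the delta subunit of the central stalk, read 10.91 and 11.12, 10.78 and 10.80, and 10.37 and 10.31 in normal lambs of 10, 20 and 30 days, against 10.26 and 10.51, 10.63 and 10.81, and 10.16 and 10.13 in callipyge lambs. Callipyge lambs lay lower at 10 and 30 days and overlapped normal lambs at 20 days, with a difference of -0.30 ± 0.09 (adjusted p = 0.171), and a dimmer probe set gave 0.03 (adjusted p = 0.962). The alpha and beta subunits of the head, ATP5F1A and ATP5F1B, gave 0.00 and -0.13, with errors of 0.07 and 0.07. Medians by role were -0.08 in the F1 head, -0.15 in the peripheral stalk and in the c ring, and -0.17 in the small membrane subunits.

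Single ages were then compared. At 10 days both callipyge lambs lay below both normal lambs for 30 of 44 members (20.8% of probe sets), among them 9 of 9 in complex III, 14 of 17 in ATP synthase, 7 of 13 in complex IV and 0 of 5 assembly factors. At 20 days this held for 21 members (18.4%) and at 30 days for 5 (17.9%). The median differences at 10, 20 and 30 days were -0.47, -0.22 and -0.11 in complex III, -0.31, -0.07 and -0.01 in ATP synthase, and -0.16, -0.11 and 0.00 in complex IV. Members lay below 0 in 37, 34 and 22 of 44 cases at these ages, beside 51.4%, 48.6% and 53% of all probe sets tested. Besides UQCRQ, the members with the largest gaps at 10 days were ATP5PB at -0.71, ATP5F1D at -0.63 and ATP5IF1 at -0.57, with adjusted p of 0.176 to 0.244. At 20 and 30 days limma called 0 members, where 0% of probe sets fell at either age and 0.0333% and 0.05% rose, and 5 and 4 had an unadjusted p under 0.05 (6.15% and 7.6% of probe sets). Ordinary least squares called 0 at each age.

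**Figure D2:**
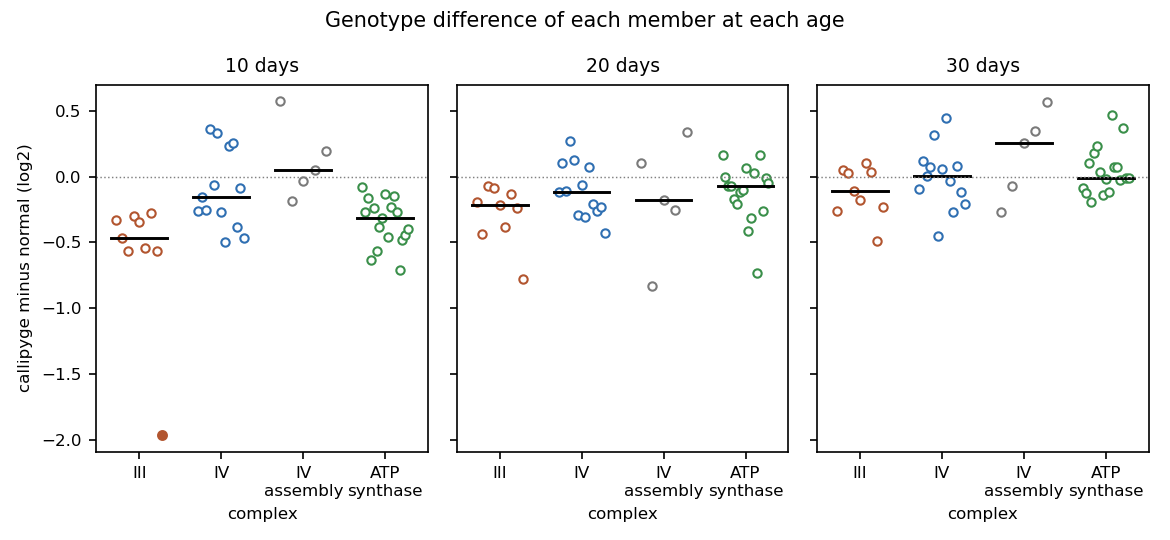
Callipyge minus normal difference (log2) of each tested member at 10, 20 and 30 days, by complex. Points are genes, filled where the adjusted p lies below 0.05, and bars are medians. The complex III median moves from -0.47 at 10 days to -0.11 at 30 days, and the filled point is UQCRQ at -1.96.

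Slow fibre genes also lay lower in callipyge muscle, with another course over the ages. Of 9 measured slow fibre markers, 9 lay below 0 averaged over ages (median -0.24), 1 of which fell, LDHB, at -0.89, and MB, the oxygen store myoglobin, stood at -0.61 (adjusted p = 0.187). The slow fibre medians at 10, 20 and 30 days were -0.13, -0.80 and -0.15, with 7, 9 and 6 of 9 below 0, beside -0.27, -0.13 and 0.00 for the members. The summed intensity of these markers was 27134 to 35851 in callipyge and 31987 to 46129.5 in normal lambs. The 8 skeletal muscle markers, which include fast fibre genes such as TNNT3, TNNI2 and MYH1, all lay higher in callipyge muscle, by 0.10 in the median. Of 3 tested red cell markers 3 lay lower (median -0.54, 167.4 to 247.6 against 208.5 to 330.7 in sum), with HBM, ALAS2 and AHSP among the dim genes. Endothelial markers lay lower in 4 of 5 tested cases (median -0.22) and fibroblast and matrix markers in 4 of 6 (median -0.18). Of 4 tested immune cell markers 3 lay higher (median 0.05). At 10 days the endothelial, fibroblast and immune medians were -0.12, -0.41 and 0.03. The part of these markers in the respiratory result was not tested.

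The next comparison followed the members with age, averaged over genotypes. From 10 to 30 days 15 of the 44 members fell and 0 rose, where 1.26% of all probe sets fell and 0.575% rose (1.83% in all). ATP synthase held 10 of them (of 17), complex IV 3 (of 13), complex III 1 (of 9) and the assembly factors 1 (of 5). Members lay below 0 in 41 of 44 cases (49.6% of probe sets), with a median of -0.39 beside 0.00 for all probe sets. Medians were -0.45 in ATP synthase, -0.41 in complex III, -0.32 in complex IV and 0.07 in the assembly factors. All 4 lambs of 30 days lay below all 4 of 10 days for 21 members (4.31% of probe sets), 12 of them in ATP synthase.

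The larger step lay between 20 and 30 days. From 10 to 20 days 28 of 44 members lay below 0 (53.4% of probe sets) with a median of -0.07, limma called 0 members and 0% of all probe sets, 3 members had an unadjusted p under 0.05 (8.42% of probe sets), and no member had all 4 lambs of 20 days below those of 10 days (2.6%). From 20 to 30 days the median was -0.33, 41 of 44 lay below 0 (46% of probe sets) and all 4 lambs of 30 days lay below all 4 of 20 days for 26 members (2.73%), 15 of them in ATP synthase. No member passed for this step in limma (smallest adjusted p = 0.0864), where 1 probe set of 12008 passed in all (0.00833%). At an unadjusted p under 0.05 there were 31 members, and 8.99% of all probe sets. With ordinary least squares 1 member passed. Bright probe sets as a whole also lay lower in this step. Of the 631 with a mean log2 of 10 or more, bright members included, 483 lay below 0, with a median of -0.16. All probe sets are thus a lenient background for the members here, and the part of brightness in this step was not tested.

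**Figure D3:**
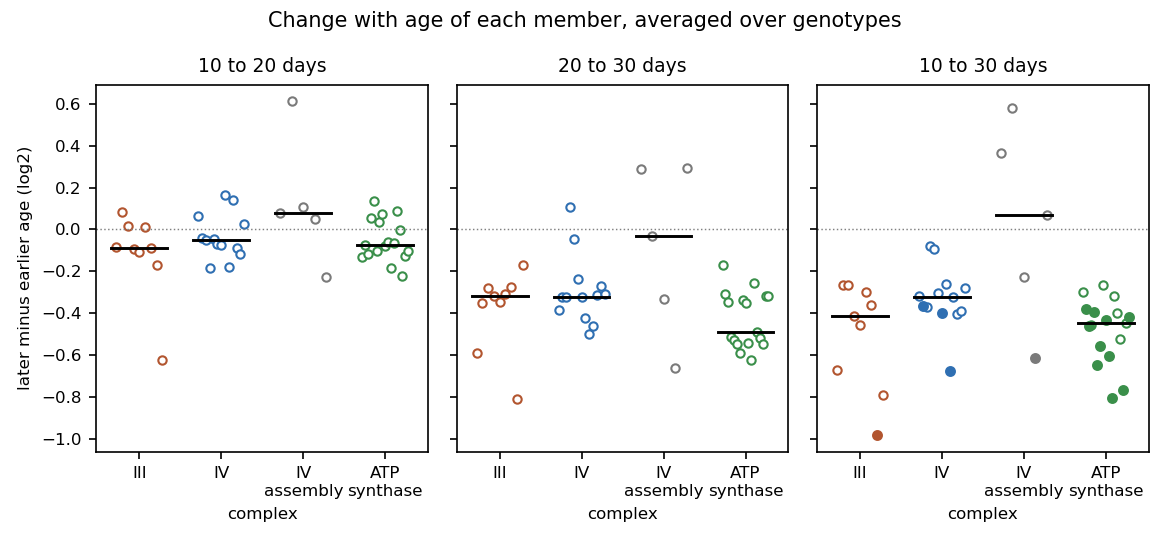
Change of each tested member from 10 to 20, 20 to 30 and 10 to 30 days (log2, averaged over genotypes), by complex. Points are genes, filled where the adjusted p lies below 0.05, and bars are medians. Medians lie between -0.09 and 0.08 from 10 to 20 days, and all 17 ATP synthase members lie below 0 from 20 to 30 days, with a median of -0.49.

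ATP synthase is taken by parts. In the membrane part, ATP5MF, subunit f, read 10.87 and 10.76, 10.64 and 10.70, and 9.54 and 9.77 in normal lambs of 10, 20 and 30 days, against 10.50 and 10.67, 10.36 and 10.36, and 10.13 and 10.13 in callipyge lambs. Both normal lambs of 30 days were lowest and all 4 lambs of that age lay below the rest, and it fell by 0.81 ± 0.10 from 10 to 30 days, or 1.75-fold (adjusted p = 0.00787). ATP5ME, whose values are given above, fell by 0.60 ± 0.11 (adjusted p = 0.0188). ATP5MG and ATP5MJ, other small subunits of this part, gave -0.32 and -0.40 (adjusted p = 0.0895 and 0.51).

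The peripheral stalk keeps the F1 head from turning with the ring. ATP5PD, its subunit d, read 11.71 and 11.81, 11.38 and 11.48, and 10.42 and 10.71 in normal lambs of 10, 20 and 30 days, against 11.22 and 11.34, 11.19 and 11.15, and 11.01 and 10.85 in callipyge lambs. The 30 day values lay below all the others, with normal lambs at the bottom, and it fell by 0.77 ± 0.10, or 1.70-fold (adjusted p = 0.00787). ATP5PO, the stalk's link to the head, read 12.36 and 12.36, 12.08 and 12.08, and 11.71 and 11.77 in normal lambs of 10, 20 and 30 days, against 11.96 and 11.96, 12.02 and 12.04, and 11.81 and 11.65 in callipyge lambs. It fell by 0.42 ± 0.08 (adjusted p = 0.0239), with no overlap between 30 days and the earlier ages. ATP5PB and ATP5PF lay lower by similar amounts, -0.52 and -0.45, and did not pass (0.0789 and 0.0525).

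In the F1 head and its central stalk, ATP5F1C, the gamma subunit that turns inside the head, read 12.95 and 12.90, 12.79 and 12.73, and 12.30 and 12.36 in normal lambs of 10, 20 and 30 days, against 12.70 and 12.82, 12.57 and 12.81, and 12.55 and 12.30 in callipyge lambs. ATP5F1E, the epsilon subunit at its foot, read 12.22 and 12.31, 12.34 and 12.39, and 11.62 and 11.71 in normal lambs of 10, 20 and 30 days, against 12.04 and 12.01, 12.31 and 12.09, and 11.87 and 11.82 in callipyge lambs. In both genes the 4 lambs of 30 days were the lowest 4, and they fell by 0.46 ± 0.09 (adjusted p = 0.0227) and 0.39 ± 0.09 (adjusted p = 0.0381). ATP5F1B, the catalytic beta subunit, fell by 0.38 (adjusted p = 0.0432), and a dimmer probe set gave -0.39 (adjusted p = 0.192). ATP5F1A at -0.30 and ATP5F1D at -0.46 did not pass (adjusted p = 0.084 and 0.0502), and a dimmer ATP5F1D probe set gave 0.07 (adjusted p = 0.900).

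The c ring is made of copies of a protein that 3 genes encode, ATP5MC1, ATP5MC2 and ATP5MC3, which share the mature peptide and differ in the import sequence. Whether the probes keep their transcripts apart was not tested. ATP5MC1 read 12.18 and 12.19, 12.10 and 12.08, and 11.42 and 11.41 in normal lambs of 10, 20 and 30 days, against 11.67 and 11.93, 11.92 and 12.02, and 11.54 and 11.38 in callipyge lambs. ATP5MC3 read 13.24 and 13.28, 12.996 and 13.16, and 12.71 and 12.83 in normal lambs of 10, 20 and 30 days, against 13.07 and 13.18, 13.15 and 13.14, and 12.87 and 12.62 in callipyge lambs. The 30 day lambs were the lowest 4 for both, and the genes fell by 0.56 ± 0.09 (adjusted p = 0.0138) and 0.43 ± 0.08 (adjusted p = 0.0231). ATP5MC2 read 11.97 and 12.03, 11.92 and 12.02, and 11.66 and 11.64 in normal lambs of 10, 20 and 30 days, against 11.64 and 11.73, 11.81 and 11.93, and 11.73 and 11.29 in callipyge lambs. Here the 30 day lambs overlapped those of 10 days, and the change was -0.26 ± 0.10 (adjusted p = 0.231).

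ATP5IF1 is no part of the motor but the inhibitor that stops ATP synthase from running backwards when the proton gradient fails. It read 11.04 and 11.10, 10.81 and 10.77, and 9.91 and 10.14 in normal lambs of 10, 20 and 30 days, against 10.41 and 10.60, 10.60 and 10.57, and 10.39 and 10.12 in callipyge lambs. Normal lambs went from the top of the range at 10 days to its lower end at 30 days, and averaged over genotypes the gene fell by 0.65 ± 0.11, or 1.57-fold (adjusted p = 0.0158).

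**Figure D4:**
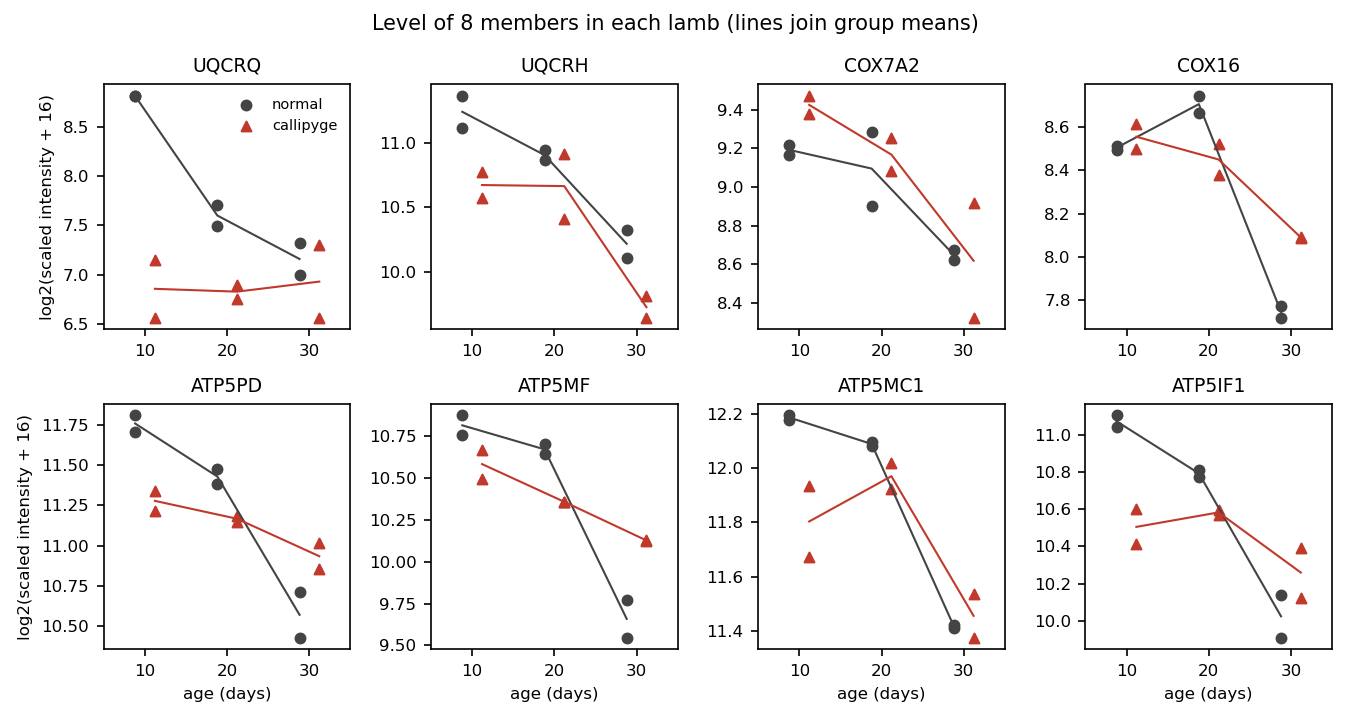
Level of 8 members in each lamb, as log2(scaled intensity + 16) against age in days, with black circles for normal and red triangles for callipyge lambs, shifted sideways for sight. Lines join the means of 2 lambs, and each panel has its own vertical range. UQCRQ is high in the normal lambs of 10 days alone, at 8.82 and 8.81, while the ATP synthase genes are lowest at 30 days in both genotypes.

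In complex III the largest fall among all 44 members was that of UQCRH, by 0.98 ± 0.13 from 10 to 30 days, or 1.98-fold (adjusted p = 0.00787). The 30 day lambs were the lowest 4 for this gene, in the values given above. UQCRQ at -0.79, CYC1 at -0.67 and UQCRFS1 at -0.36 lay just outside the threshold, at adjusted p of 0.0521, 0.0531 and 0.0535. The core and remaining small subunits ran from -0.46 for UQCRC1 to -0.27 for UQCR10.

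Complex IV held 3 genes that fell with age. COX7A2, the widely expressed form of subunit VIIa, read 9.22 and 9.17, 8.90 and 9.29, and 8.62 and 8.67 in normal lambs of 10, 20 and 30 days, against 9.38 and 9.47, 9.25 and 9.08, and 8.92 and 8.32 in callipyge lambs. Callipyge 30 day replicate 2 was the lowest, and the gene fell by 0.68 ± 0.15 (adjusted p = 0.0403). COX5A, which sits on the matrix side of the complex, read 13.03 and 13.06, 12.87 and 12.88, and 12.42 and 12.67 in normal lambs of 10, 20 and 30 days, against 12.87 and 12.91, 12.997 and 12.96, and 12.72 and 12.60 in callipyge lambs. The 30 day lambs were again the lowest 4, and it fell by 0.37 ± 0.08 (adjusted p = 0.0381). COX6C, a membrane subunit, fell by 0.40 ± 0.09 (adjusted p = 0.0423). COX7C, COX5B and COX4I1 gave -0.40, -0.37 and -0.32, and none passed (adjusted p of 0.0694 to 0.109). COX6A1 and COX6A2 were nearest to 0, at -0.08 and -0.09, and a dimmer COX6A1 probe set stood at -0.56 (adjusted p = 0.138).

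Among the assembly factors COX16, which takes part in building the catalytic core of complex IV, read 8.52 and 8.50, 8.67 and 8.75, and 7.72 and 7.77 in normal lambs of 10, 20 and 30 days, against 8.50 and 8.61, 8.52 and 8.38, and 8.09 and 8.09 in callipyge lambs. All 4 lambs of 30 days lay below the rest, with the normal ones lowest, and it fell by 0.61 ± 0.12 (adjusted p = 0.0231). COX11 went the other way at 0.58 ± 0.21 (adjusted p = 0.187), as did COX10 at 0.37 (adjusted p = 0.45), and neither passed.

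The number of members called with age depended on several libraries and on the scaling, while the medians moved less when arrays were left out. With 1 array left out the medians for 10 to 30 days ran from -0.51 to -0.39 in ATP synthase, from -0.50 to -0.34 in complex III and from -0.40 to -0.28 in complex IV. The count of 15 became 5 without callipyge 10 day replicate 1 and 3 without its replicate 2. Leaving out normal 10 day replicate 1 gave 3, normal 10 day replicate 2 gave 4, and callipyge 30 day replicate 2 gave 4, where 0.0833% to 0.383% of all probe sets fell. Without both 30 day replicates 2 no member passed, and 1 probe set of 12008 fell in all, with medians of -0.42 in ATP synthase, -0.35 in complex III and -0.33 in complex IV. With no scaling 0 passed, where 0.0416% of all probe sets fell. The medians were then -0.14 in ATP synthase, -0.11 in complex III and -0.065 in complex IV, each below the 0.24 of all probe sets. With quantile normalization 8 passed (0.799% of all probe sets fell), with median centring 3 (0.15%).

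Brightness moved with the same result. Of the 44 members 31 had a mean of 10 or more on the log2 scale, including all 17 of ATP synthase, 7 of complex III, 7 of complex IV and 0 assembly factors. Of these 31, 13 fell from 10 to 30 days (41.9%), with a median of -0.40. Of the other 600 probe sets as bright, 69 fell (11.5%), with a median of -0.12. Summed intensities of the immune cell markers were 97.8 to 145.8 at 10 days and 163.7 to 213.7 at 30 days without overlap, and 4 of 4 tested lay higher (median 0.33, PTPRC and CD79A among the dim genes), as did 5 of 5 endothelial markers (median 0.23, 1067 to 1992 against 911.5 to 2080.0 in sum, KDR among the dim genes). The 8 skeletal muscle markers, fast fibre genes among them, all lay lower (median -0.16), and slow fibre markers had a median of -0.06. The part of these in the age result was not tested.

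The course with age was set side by side in the genotypes, which have 2 lambs at each age. From 10 to 30 days the median change of the members was -0.54 in normal and -0.23 in callipyge lambs, and 37 of 44 changed more in the downward direction in normal lambs (49% of probe sets). That count restates, from the same lambs, that the genotype difference at 30 days lay above that at 10 days. In complex III the medians were -0.56 and -0.21, in ATP synthase -0.61 and -0.25, and in complex IV -0.41 and -0.23. All 17 ATP synthase members lay below 0 in each genotype. UQCRQ stood at -1.66 in normal and 0.07 in callipyge lambs, ATP5MF at -1.16 and -0.46, ATP5PD at -1.19 and -0.34, and ATP5IF1 at -1.05 and -0.25. No interaction of genotype and age passed in limma, among members or among all 12008 probe sets (0%), and ordinary least squares called 0 members. At an unadjusted p under 0.05 there were 9 members, and 4.75% of all probe sets.

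Subunits with more than 1 gene were compared within arrays, as the log2 ratio of the partners, in 7 pairs and 14 two-sided exact permutation tests. No pair passed after adjustment over the 14 tests, which a single pair could not do even at the lowest p the design allows. For genotype the smallest p was that of ATP5MC3 over ATP5MC2, which differed by 0.15 between callipyge (1.32 ± 0.12, SD, n = 6) and normal lambs (1.16 ± 0.09), with an exact permutation p of 0.0185 (adjusted p = 0.259, lowest possible p 0.00926). The adjusted p of the other 13 tests was 0.389 or more. For 10 to 30 days 36 relabelings allow no p below 0.0556, which this pair reached with a change of -0.17.

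The forms of subunits VIa, VIIa and VIII for muscle and for other tissues are the remaining pairs. COX6A2, the muscle form of VIa, read 10.43 and 10.36, 10.25 and 10.24, and 10.19 and 10.03 in normal lambs of 10, 20 and 30 days, against 10.33 and 10.33, 10.54 and 10.22, and 10.11 and 10.74 in callipyge lambs. Its partner COX6A1 read 8.02 and 8.11, 7.93 and 7.93, and 8.30 and 7.97 in normal lambs of 10, 20 and 30 days, against 8.38 and 8.48, 8.30 and 8.09, and 8.38 and 8.03 in callipyge lambs. COX6A2 varied little except for the high value of callipyge 30 day replicate 2, and COX6A1 was higher in callipyge lambs at 10 and 20 days. The ratio was lower in callipyge lambs by 0.11 (log2 difference -0.11, exact permutation p = 0.630), and from 10 to 30 days it changed by -0.01 (exact permutation p = 1).

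COX7A1, the muscle form of VIIa, read 11.35 and 12.11, 11.71 and 11.89, and 10.73 and 11.27 in normal lambs of 10, 20 and 30 days, against 10.98 and 11.49, 11.37 and 11.61, and 11.50 and 11.39 in callipyge lambs. The normal 10 day replicates lay further apart than the genotype means did at any age. Its ratio to COX7A2 changed by 0.42 from 10 to 30 days (exact permutation p = 0.333). The genotype difference of that ratio was -0.21 (exact permutation p = 0.417). COX7A2L, a related protein that joins complexes III and IV into supercomplexes, read 8.26 and 8.09, 8.58 and 8.52, and 7.76 and 8.47 in normal lambs of 10, 20 and 30 days, against 8.10 and 8.76, 8.75 and 7.93, and 8.29 and 7.40 in callipyge lambs. The COX7A1 to COX7A2L ratio differed by -0.04 between genotypes (exact permutation p = 0.926). COX8A, the widely expressed form of VIII, read 10.05 and 9.49, 9.52 and 9.93, and 9.64 and 9.14 in normal lambs of 10, 20 and 30 days, against 10.16 and 9.21, 9.43 and 9.55, and 9.50 and 9.06 in callipyge lambs. The COX8A to COX8B ratio differed by 0.22 (exact permutation p = 0.352), and its SD over the 4 lambs of 10 days was 0.67.

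Other genes of the pathway were set beside the members, at the same background. Of 37 tested complex I subunits, 31 lay below 0 for genotype (median -0.19) and 0 passed in limma, with NDUFS7 at -0.40 (adjusted p = 0.0933) and NDUFA3 at -0.49 (0.104). From 10 to 30 days 12 of the 37 fell and 0 rose (median -0.50). The complex I medians for genotype at 10, 20 and 30 days were -0.38, -0.21 and 0.01, and from 20 to 30 days the median was -0.38. The course over the ages was thus not particular to the members. Of 4 complex II genes none passed, with medians of -0.16 and -0.19, SDHB at -0.24 and SDHD at -0.24 for genotype. Of 12 other assembly factors 0 passed for genotype (median -0.19, COA4 at -0.47, BCS1L at -0.29) and 2 fell with age, COA3 and FMC1. Of 63 mitochondrial ribosome genes 0 passed for genotype (median -0.06, MRPL37 at -0.41, MRPS34 at -0.44) and 5 fell with age (median -0.30). Their genotype medians at 10, 20 and 30 days were -0.20, -0.15 and 0.08. Those of complex II were -0.21, -0.21 and -0.07, and those of the other assembly factors -0.22, -0.33 and 0.10.

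Genes that exchange ATP and phosphate or regulate mitochondrial genes were counted in the same way. Of 8 carriers, kinases and pores, 0 passed in either comparison (medians -0.03 and -0.18, with SLC25A6 at -0.22 and VDAC2 at -0.07 for genotype). Of 9 tested regulators 0 passed in either (medians 0.01 and 0.15). PPARGC1A, the coactivator of mitochondrial genes, stood at 0.51 for genotype with an error of 0.33 (adjusted p = 0.586), and POLG2 at 0.27.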

How the data were processed

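Total RNA from longissimus dorsi of 12 lambs was read on Affymetrix bovine arrays, 1 array per lamb. The authors deposited 1 intensity for each probe set, on a linear scale, made with MAS5 in GCOS per the submitters' processing notes. The scaling target is not given in the sources used here. Because the trimmed means (2% left out at each end) differed by a ratio of 1.90, above a limit of 1.5, each array was scaled to 79.2, and log2 of the scaled intensity plus 16 was taken. Control probe sets (112) were removed. A filter on the mean at its median, 5.25, kept 12008 of 24016 probe sets and removed the others as dim. Names came from the array's annotation, in which 13292 probe sets had 1 symbol, 86 several and 10638 none. For 12 members more than 1 probe set was measured, and the brightest was used.

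Each probe set was fitted in limma 3.58.1 (R 4.3.3) with 6 group means, and its variance was moderated toward a trend on mean level (6.93 prior and 6 residual degrees of freedom). P values were adjusted by Benjamini-Hochberg over all 12008 probe sets, with a threshold of 0.05. Isoform pairs were tested by exact permutation of genotype within age or of age within genotype. The fit was tested on simulated data. By rule, values of every lamb are given for 25 members. These are the 12 with the smallest p among those past the threshold in any contrast, the 2 of each complex with the smallest p for genotype and for 10 to 30 days, and both partners of each isoform pair. Genes of other lists are the 2 with the smallest genotype p, and those named with calls in the age comparison were added after their values were seen. The labels call the lambs biological replicates. The limma p-values rest on the spread between the 2 lambs within groups, pooled over the 6 groups and moderated as above. The members and lists were chosen with earlier results of these data known. Alternatives covered the pseudocount, scaling, dim filter, choice of probe set, variance model, array weights, replicate number, threshold and arrays left out. A split at a mean log2 of 10 was added after the data were seen. Plots were made in python 3.11.15 using matplotlib 3.10.9.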

Additional observations from a re-analysis of the deposited data

Results flagged for a closer look

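In 8 of the 44 members the genotypes lay apart in opposite directions at 2 ages, with both callipyge lambs on one side of both normal lambs at the first age and on the other side at the second (12% of all probe sets tested did so at some pair of ages). The difference of the genotype differences is given below as the later age minus the earlier one, and no interaction with age passed for these genes in limma (adjusted p = 0.952 to 0.992).

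In ATP synthase 4 genes were of this kind. ATP5PD, of the peripheral stalk, went from -0.48 at 10 days and -0.26 at 20 days to 0.37 at 30 days, which are differences of 0.85 and 0.63. ATP5MF, of the membrane part, went from -0.23 and -0.31 to 0.47, differences of 0.70 and 0.78. ATP5F1E, the epsilon subunit, went from -0.24 and -0.17 to 0.18, differences of 0.42 and 0.35. ATP5PB, another stalk subunit, went from -0.71 at 10 days to 0.16 at 20 days, a difference of 0.87.

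In complex IV the genes were COX6B2, COX7A1 and COX5A, with the assembly factor COX16. COX6B2, the testis form of subunit VIb, turned the other way, from 0.33 at 10 days to -0.29 at 20 days and -0.45 at 30 days, differences of -0.63 and -0.78. COX7A1 went from -0.31 at 20 days to 0.44 at 30 days, a difference of 0.75. COX16 went from -0.26 to 0.35 over the same ages, a difference of 0.60. COX5A went from -0.16 at 10 days to 0.10 at 20 days, a difference of 0.26.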

How the results depend on the processing

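The count of members that fell from 10 to 30 days, 15, was 0 with no scaling, 8 with quantile normalization, 3 with median centring, 7 with no dim filter, 27 with the filter at the 75th percentile, 4 with ordinary least squares, 27 at a threshold of 0.10, 0 without both 30 day replicates 2, and 3 to 19 with 1 array left out. UQCRH, ATP5MF and ATP5PD passed with any single array left out. The count for genotype averaged over ages, 1, was 0 with ordinary least squares or without both 30 day replicates 2, 2 at a threshold of 0.10, which added UQCRH, and 1 with any single array left out. At 10 days the count of 1 was 0 with no filter or with ordinary least squares, and 0 to 1 with 1 array left out. For 20 to 30 days the count of 0 was 1 with ordinary least squares, where 0.0167% of all probe sets fell. It was 4 at a threshold of 0.10 (0.0416%). The share of all probe sets that fell from 10 to 30 days, 1.26%, moved with the settings as well. This share was 0.0416% with no scaling, 0.799% with quantile normalization, 0.15% with median centring and 0.258% with no dim filter. With the filter at the 75th percentile it was 3.71%, with ordinary least squares 0.0999%, and 2.4% at a threshold of 0.10.

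Without scaling the genotype medians were -0.49 in complex III, -0.31 in complex IV, -0.14 in the assembly factors and -0.38 in ATP synthase, beside -0.19 for all probe sets. For 10 to 30 days these medians were -0.11, -0.065, 0.26 and -0.14, beside 0.24 for all probe sets. With quantile normalization the latter were -0.20 in complex IV and -0.27 in ATP synthase, and with median centring -0.31 in ATP synthase. In the assembly factors this median was 0.37 with the filter at the 75th percentile, -0.18 without both 30 day replicates 2 and -0.11 to 0.15 with 1 array left out. Apart from the scaling factors left out, the cause of these shifts was not tested.

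With replicate number as a block, 17 members fell from 10 to 30 days (1.27% of all probe sets), the 15 and ATP5F1D and ATP5PF. For genotype 1 fell (0.275%), and 1 at 10 days (0.025%). The deviations of lambs with the same number correlated from -0.06 to 0.11 over 15 pairs of groups, so the numbers were not taken as pairing. With 2 lambs per group, dim genes such as COX19 and COX20 allowed the least to be seen.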
